A study of Rattus norvegicus with 4 samples.

Results

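The genes described here encode the enzymes of the first committed steps of glucose breakdown, the hexokinases and the phosphofructokinases, together with the enzymes that make and remove the phosphofructokinase activator fructose 2,6-bisphosphate. Members were chosen by gene name from a list of 9, namely Hk1, Hk2, Pfkm, Pfkl, Pfkp, Pfkfb1, Pfkfb2, Pfkfb3 and Pfkfb4. Of these, 8 were found by name among the 32883 genes of the count table, each with 1 identifier, and Pfkfb4 was not analysed here. All 8 passed the filter on low counts, which left 15257 genes for testing. The member list and the gene lists below were drawn up with earlier results of these data known. Their shares of called genes are therefore a description. The cells were ventricular cardiomyocytes isolated from Sprague-Dawley rats on postnatal day 2 and plated after a step that removes fast-attaching non-cardiomyocytes. Both groups were kept in high-glucose medium with pyruvate and fetal bovine serum. The PE group (2 libraries) received phenylephrine, an agonist of alpha-1 adrenergic receptors that makes these cells grow, at 20 µM for 24 h, and the control group (2 libraries) was untreated. The labels do not tell whether replicates are separate cultures. A p-value here rests on the spread within each pair of libraries, and that spread may be technical. The test also draws each gene's spread toward a trend over all tested genes, so it is not that gene's spread alone.

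Hexokinase phosphorylates glucose as it enters the cell and so traps it. Hk1 is the broadly expressed form and is prominent in the fetal heart, while Hk2 is the insulin-responsive form of adult heart and skeletal muscle. Phosphofructokinase-1 then commits the sugar to glycolysis and is a tetramer built from muscle (Pfkm), liver (Pfkl) and platelet (Pfkp) subunits. The PFKFB enzymes carry both a kinase and a phosphatase activity and set the level of fructose 2,6-bisphosphate, a strong activator of phosphofructokinase-1.

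The 3 phosphofructokinase-1 genes were the members that changed with PE, and they did not change in the same direction. Pfkp rose 3.08-fold (95% interval 2.38 to 3.99) and Pfkl rose 2.82-fold (2.02 to 3.95), while Pfkm fell to 0.477 of its control level (0.371 to 0.613). Neither hexokinase gene and none of the 3 PFKFB genes passed the test. The count of 3 changed members among 8 can be read against 15.7% of all tested genes, with 7.39% higher and 8.3% lower (edgeR quasi-likelihood test, Benjamini-Hochberg adjusted p under 0.05 over all tested genes). Levels are given as CPM, the gene's count per 1000000 counts of the TMM-scaled library. CPM does not correct for transcript length, so it compares libraries for 1 gene and not genes with each other.

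Library depth was 45637881 to 56948370 counts. Mitochondrial-genome transcripts took 6.19% and 11.7% of counts in control replicates 1 and 2, against 4.61% and 4.76% in PE replicates 1 and 2. The median absolute log2 gap between replicates was 0.27 for the controls and 0.12 for PE, over 9128 genes with at least 10 CPM on average. Among markers of the labelled cell type, all 7 found of 8 were present, with a summed level of 13040 to 13300 CPM in the controls and 13870 to 15300 CPM with PE. These markers did not move together. Myl3 and Myl2 rose by 0.88 and 0.71 on the log2 scale. Actn2 and Tnni3 were at 0.60 and 0.12 and did not pass. Myh6, Tnnt2 and Ryr2 lay below 0, at -0.55, -0.31 and -0.26, and did not pass either. Myl3 alone went from 2395 and 1621 CPM in the controls to 3480 and 3896 CPM with PE. RNA of other cell types was present as well. The 8 fibroblast markers summed to 16280 to 18170 CPM in the controls and 9994 to 10080 CPM with PE, but did not move together. Col3a1 and Pdgfra were lower, at -1.35 and -0.67 on the log2 scale. Postn and Col1a1 were at -0.81 and -0.59 and did not pass. Dcn, Lum and Tcf21 lay on the other side of 0, at 0.505, 0.11 and 0.04, and did not pass either. Col1a2, with 1 to 5 counts per library, was not tested. The 6 endothelial markers found of 7 summed to 213.1 to 213.3 CPM against 126.1 to 129.7 CPM, and the 7 macrophage and leukocyte markers to 144.4 to 156.6 CPM against 95.9 to 99.4 CPM. The 5 smooth muscle and pericyte markers summed to 642.5 to 705 CPM against 490.1 to 526.3 CPM, with Abcc9, which cardiomyocytes also express, lower. Their part in the changes described below was not tested. In bulk libraries such as these, fewer cells of a type and less RNA per cell cannot be told apart.

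**Figure D1:**
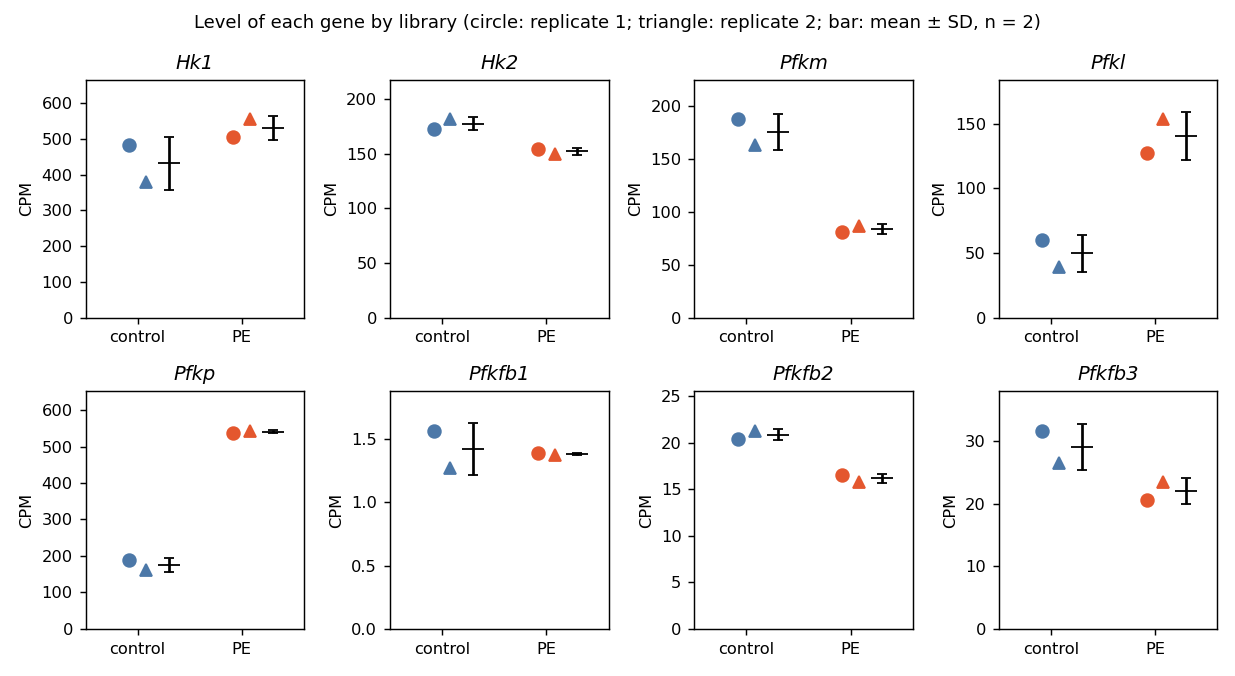
Level of each of the 8 genes (CPM, y axis from 0) in the 2 control and 2 PE libraries, with the mean ± SD of each group beside the points. The groups lie far apart for Pfkm, Pfkl and Pfkp, and close together for the other genes, with overlap only for Pfkfb1.

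Pfkp (ENSRNOG00000017163), the platelet-type subunit, was at 188.5 and 162.2 CPM in control replicates 1 and 2 and at 538.1 and 543.4 CPM in PE replicates 1 and 2. Both PE libraries lay far above both controls and almost on top of each other. The group means were 175.4 ± 18.6 and 540.7 ± 3.75 CPM (SD, n = 2 each), a log2 fold change of 1.62 ± 0.17 (SE; edgeR adjusted p = 0.000163). It ranked 345 among the 15257 tested genes in order of rise.

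Pfkl (ENSRNOG00000001214), the liver-type subunit, was at 59.9 and 39.4 CPM in the controls and at 127.0 and 153.2 CPM with PE. The groups did not overlap, but this gene varied most between replicates of the 8, with log2 gaps of -0.61 between control replicates 2 and 1 and 0.27 between PE replicates 2 and 1. Its log2 fold change was 1.50 ± 0.22 (SE; edgeR adjusted p = 0.00118). It was at 1.84 without control replicate 1 and at 1.23 without control replicate 2, and passed both times.

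Pfkm (ENSRNOG00000057988), the muscle-type subunit, was at 187.4 and 163.6 CPM in the controls and at 80.6 and 86.9 CPM with PE. Both PE libraries lay far below both controls. Its log2 fold change was -1.07 ± 0.16 (SE; edgeR adjusted p = 0.00159), rank 949 among tested genes in order of fall. Without PE replicate 1 the value was -1.01 and the call was lost. In that fit 1 PE library was left, and the spread came from the control pair, over this gene and others. In RefSeq's annotation of the GRCr8 assembly, Pfkm overlaps the protein-coding gene Senp1, which was at 15.9 CPM in the controls and 14.4 CPM with PE (log2 fold change -0.14 ± 0.19, adjusted p = 0.678). The strand setting used in counting is not given in the sources used here, so reads over the shared stretch are uncertain.

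Within a library, the ratio of 2 genes' counts does not depend on how libraries are scaled, and gene length cancels when that ratio is compared between libraries. The Pfkp to Pfkm count ratio was 1.01 and 0.992 in the controls and 6.67 and 6.26 with PE, a 6.47-fold change. Of the 6 ratios computed it was the tightest in the controls, with an SD of its log2 value of 0.01, against 0.07 with PE. The Pfkl to Pfkm ratio was 0.319 and 0.241 in the controls and 1.57 and 1.76 with PE, a 6.01-fold change. Neither ratio overlapped between groups. The Pfkp to Pfkl ratio was 3.15 and 4.12 in the controls and 4.24 and 3.55 with PE, and the groups overlapped. With 2 libraries against 2, the exact permutation test cannot give a two-sided p below 0.333, the value reached by the Pfkp to Pfkm and Pfkl to Pfkm ratios. The Hk2 to Hk1 and Pfkfb1 to Pfkfb2 ratios, of genes that did not pass, also reached it without overlap.

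As a share of the reads of the 3 phosphofructokinase-1 genes, which also reflects transcript length, Pfkm took 43.0% and 44.8% in the controls and 10.8% and 11.1% with PE. The exact (Clopper-Pearson) 95% intervals were 42.4% to 43.6% and 44.0% to 45.6% in the controls and 10.5% to 11.1% and 10.8% to 11.4% with PE, and cover counting error only. Pfkp went from 43.3% and 44.4% to 72.2% and 69.4%, and Pfkl from 13.7% and 10.8% to 17.0% and 19.6%. The 3 genes together were at 435.8 and 365.2 CPM in the controls and 745.7 and 783.4 CPM with PE, a ratio of group means of 1.91 (exact permutation p = 0.333, two-sided, the smallest possible).

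**Figure D2:**
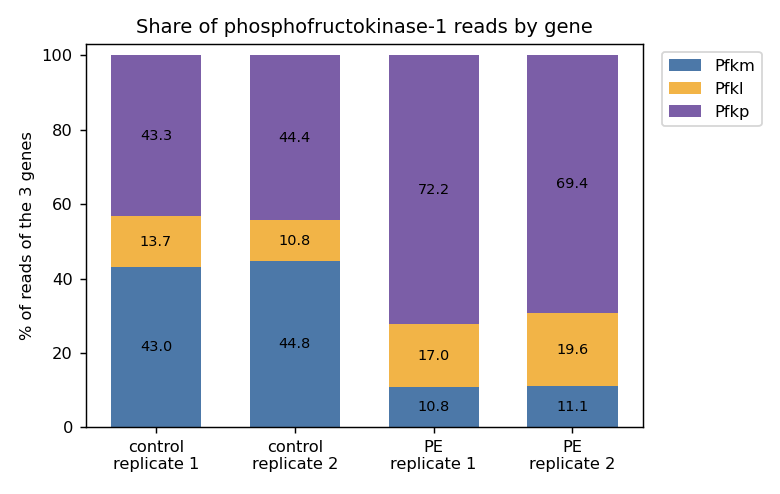
Share of the reads of Pfkm, Pfkl and Pfkp (% of the 3 genes' reads, y axis) in each of the 4 libraries. Pfkm takes 43.0% and 44.8% in the control libraries and 10.8% and 11.1% in the PE libraries, and Pfkp takes 72.2% and 69.4% with PE.

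The stretches upstream of the start sites of these 3 genes are shown because the genes changed in opposite directions within 1 enzyme. Sequences are from RefSeq (build GRCr8), 250 bases before the annotated start, 5′ to 3′ on the strand of the gene, all 3 on the plus strand. Capitals mark the core of the hypoxia response element, searched as ACGTG or GCGTG on both strands.
Pfkp, chr17:68639563-68639812: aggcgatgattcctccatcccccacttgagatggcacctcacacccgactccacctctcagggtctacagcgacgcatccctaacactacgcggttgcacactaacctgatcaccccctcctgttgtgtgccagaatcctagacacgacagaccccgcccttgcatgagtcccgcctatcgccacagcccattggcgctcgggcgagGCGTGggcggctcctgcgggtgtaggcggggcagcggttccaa
Pfkl, chr20:10663715-10663964: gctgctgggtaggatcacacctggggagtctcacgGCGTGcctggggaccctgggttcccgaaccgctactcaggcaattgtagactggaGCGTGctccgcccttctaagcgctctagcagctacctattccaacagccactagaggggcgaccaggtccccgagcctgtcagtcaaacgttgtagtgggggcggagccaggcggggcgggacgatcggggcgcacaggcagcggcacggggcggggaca
Pfkm, chr7:131113849-131114098: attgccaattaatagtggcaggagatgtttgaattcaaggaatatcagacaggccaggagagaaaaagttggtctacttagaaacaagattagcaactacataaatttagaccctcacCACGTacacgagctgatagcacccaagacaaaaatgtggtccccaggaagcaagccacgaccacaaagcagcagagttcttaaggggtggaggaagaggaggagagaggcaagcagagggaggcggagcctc

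The 2 windows of the genes that rose were richer in G and C, at 62.8% for Pfkp and 66.0% for Pfkl, than that of Pfkm at 47.6%, with a median of 51.2% over all 33469 windows of this kind in the table. The GC box, searched as GGGCGG on both strands, was found 2 times upstream of Pfkp, 4 times upstream of Pfkl and not upstream of Pfkm. At least 1 GC box was present in 30.5% of all windows. Some members that did not pass also had these features. A window of Hk1 was at 70.0% G and C with 2 GC boxes, and that of Pfkfb3 at 63.6% with 2 GC boxes and 2 overlapping matches to the hypoxia core. The hypoxia response core was found in all 3 windows, once for Pfkp and Pfkm and 2 times for Pfkl, and in 36.7% of all windows. In Pfkp it lies 43 to 39 bases before the start and shares its last base with a GC box at 39 to 34. The E-box CACGTG, bound by Myc and the glucose-responsive factor ChREBP, was not in these 3 windows and was present in 5.6% of all windows. Among the other members it was found upstream of Pfkfb3 only, in the single window listed for that gene. There it lies 42 to 37 bases before the start, on the same bases as the 2 overlapping matches to the hypoxia core. A match in these letters is a description and not a measured binding site, and some genes have more than 1 start. The window of Pfkm lies inside the span that RefSeq gives that gene, so at least 1 start lies further upstream, and Hk1 is listed with 2 windows.

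The hexokinase genes did not pass the test. Hk1 (ENSRNOG00000046891) was at 484.5 and 379.1 CPM in the controls and at 506.1 and 555.1 CPM with PE, so the PE libraries lay above the controls by less than the gap between the controls. Its log2 fold change was 0.30 ± 0.18 (SE; edgeR adjusted p = 0.316), and the 95% interval of the fold ran from 0.933 to 1.62. Without control replicate 1 it was at 0.49 and passed (adjusted p = 0.00353), and without control replicate 2 it was at 0.13 (adjusted p = 0.511). Hk2 (ENSRNOG00000006116) was at 173.1 and 181.5 CPM in the controls and at 154.5 and 150.1 CPM with PE. Replicates of Hk2 lay close together and the groups did not overlap, but the difference was small, with a log2 fold change of -0.22 ± 0.15 (adjusted p = 0.4) and an interval of the fold from 0.678 to 1.09. In edgeR neither gene had an unadjusted p under 0.05, and DESeq2 called neither. The Hk2 to Hk1 count ratio was 0.357 and 0.479 in the controls and 0.305 and 0.271 with PE, without overlap (exact permutation p = 0.333, two-sided).

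The PFKFB genes had log2 fold changes between -0.40 and -0.04, and none passed. Pfkfb3 (ENSRNOG00000018911), the form with the highest kinase activity relative to its phosphatase, was at 31.7 and 26.5 CPM in the controls and at 20.6 and 23.5 CPM with PE. Its log2 fold change was -0.40 ± 0.18 (SE; edgeR adjusted p = 0.174). Without control replicate 2 it was at -0.52 and passed, with the spread taken from the PE pair, over this gene and others. Pfkfb2 (ENSRNOG00000004162), the heart form, which is activated by phosphorylation, was at 20.4 and 21.3 CPM in the controls and at 16.5 and 15.9 CPM with PE. The replicates of Pfkfb2 differed by a log2 gap of 0.06 in either group and the groups did not overlap, with a log2 fold change of -0.37 ± 0.17 (edgeR adjusted p = 0.195). Pfkfb1 (ENSRNOG00000000165), known from liver and skeletal muscle, had 84 and 58 counts in the controls and 78 and 65 with PE, or 1.57, 1.27, 1.39 and 1.38 CPM. Its groups overlapped, and its fold interval of 0.604 to 1.57 was the widest of the 8 on the log2 scale. None of the 3 had an unadjusted p under 0.05 in edgeR, and DESeq2 called none. Pfkfb3 and Pfkfb2 lay near that cut-off, with an unadjusted edgeR p of 0.05 (rounded) and 0.0596. Their fold intervals ran from 0.574 to 1 (rounded) and from 0.594 to 1.01. The Pfkfb3 to Pfkfb2 ratio was 1.55 and 1.24 in the controls and 1.25 and 1.48 with PE, so the groups overlapped.

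**Figure D3:**
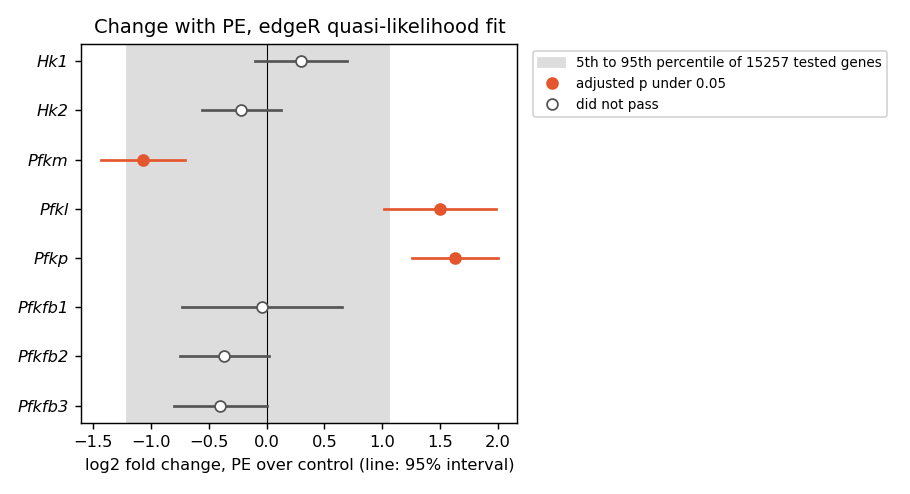
Log2 fold change of each gene, PE over control (x axis), with its 95% interval, filled where the adjusted p was under 0.05. The grey band spans the 5th to 95th percentile of the 15257 tested genes, -1.20 to 1.05: Pfkp and Pfkl lie beyond its upper end and Pfkm inside its lower end.

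CPM did not overlap between groups for 7 of the 8 genes, the exception being Pfkfb1. This share is to be read against 56.7% of all tested genes whose groups did not overlap in either direction. The median log2 fold change of the 8 was -0.13, beside -0.01 over all tested genes. In the authors' deposited DESeq2 comparison, the adjusted p was 8.48e-18 for Pfkp, 1.64e-09 for Pfkl and 1.53e-07 for Pfkm. The smallest among the other 5 genes was 0.207, for Pfkfb3. All 20666 deposited log2 fold changes compared equalled those of the DESeq2 fit run here, within 1e-06. The authors' values and that fit are therefore not separate evidence.

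**Figure D4:**
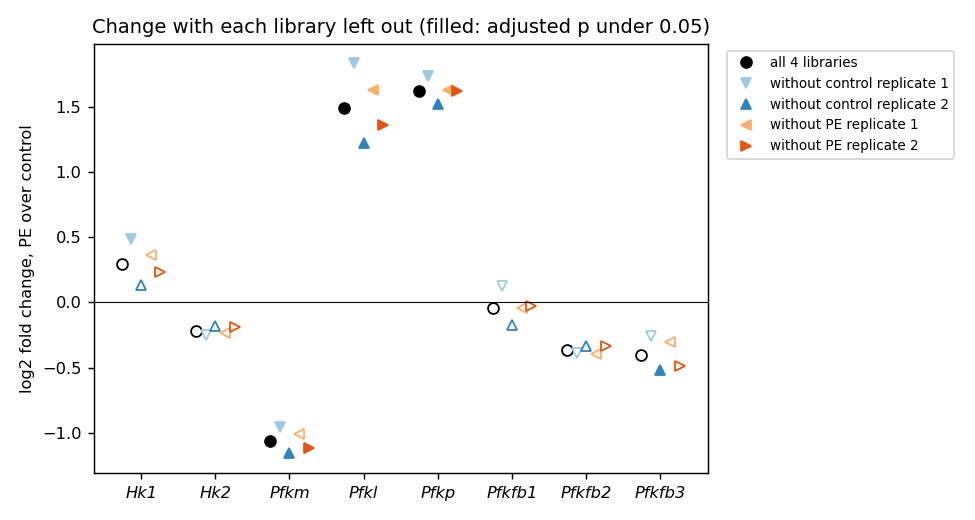
Log2 fold change of each gene, PE over control (y axis), with all 4 libraries and with each library left out in turn, filled where the adjusted p was under 0.05. Pfkp and Pfkl stay above 1.2 and filled throughout, Pfkm stays at -0.96 or below and is open without PE replicate 1, and Hk1 and Pfkfb3 are filled once each.

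The genes whose 4 log2 CPM values, centred on their mean, lay nearest to those of Pfkp were Mcam, a cell adhesion molecule, Col8a1, a chain of type VIII collagen, and Bdh1, a mitochondrial enzyme of ketone body use. Their Euclidean distances were 0.0534, 0.0787 and 0.101 among 9154 candidates. Those nearest to Pfkl were Lrrc4b, Dok4 and Avpi1, at 0.105, 0.135 and 0.146. Mcam was at 104.3 and 92.4 CPM in the controls and at 293.9 and 295.1 CPM with PE, and Lrrc4b at 68.1 and 46.2 CPM in the controls and at 145.3 and 191.1 CPM with PE. With 4 libraries in 2 groups, such a distance mainly reflects the size of the PE difference and the gap between the controls.

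Genes on either side of these steps were read from the same fit. Of 8 glucose transporter genes, 6 were tested, 1 fell and 5 did not pass, with a median log2 fold change of 0.14. That is 16.7% of those tested, close to the 15.7% called among all tested genes. The gene that fell was Slc2a4, the insulin-responsive transporter, from 55.7 and 44.2 CPM to 15.7 and 18.6 CPM. Slc2a1, the basal transporter, was at 212.6 and 236.4 CPM on average (log2 fold change 0.15 ± 0.16, edgeR adjusted p = 0.596); it falls outside the naming rule and was chosen after its values were seen. Of 6 tested genes listed with the other sugar kinases, which include Gckr, a regulatory protein of glucokinase and not a kinase, none passed in edgeR. An unadjusted p under 0.05 was found for 4 of them, Gckr included, beside 28.8% of all tested genes, and DESeq2 called 1, Hk3, a hexokinase known from leukocytes. Hk3 was at 22.1 and 14.7 CPM in the controls and at 10.9 and 11.6 CPM with PE (edgeR log2 fold change -0.71 ± 0.22, adjusted p = 0.0569). It was at -0.38 without control replicate 1 and at -0.97 without control replicate 2, where it passed (adjusted p = 6.29e-07). Adpgk, the ADP-dependent glucokinase, was at 28.8 and 21.2 CPM in the controls and at 34.9 and 37.1 CPM with PE (log2 fold change 0.53 ± 0.19, adjusted p = 0.0943). It was at 0.77 without control replicate 1, where it passed (adjusted p = 6.59e-05), and at 0.32 without control replicate 2.

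A list of other glycolysis steps holds Gpi, the isomerase between hexokinase and phosphofructokinase, and the enzymes from aldolase to lactate export, and 17 of its 19 genes were tested. Of these, 6 rose, 1 fell and 10 did not pass, with a median log2 fold change of 0.61. The share called was 41.2%, beside 15.7% of all tested genes. Gpi did not pass. The lactate exporter Slc16a3 rose from 25.2 and 15.8 CPM to 159.6 and 215.1 CPM, the largest rise of the list. Phosphoglycerate kinase Pgk1 rose from 205.8 and 192.7 CPM to 443.1 and 432.3 CPM. The phosphoglycerate mutase genes changed in opposite directions, as the phosphofructokinase-1 genes did. No other enzyme of this list had calls in both directions. Pgam1, the broadly expressed form, rose from 210.3 and 191.4 CPM to 475.7 and 484.9 CPM (log2 fold change 1.26 ± 0.16, edgeR adjusted p = 0.000555). Pgam2, the muscle form, fell from 11.6 and 11.7 CPM to 1.3 and 1.29 CPM (log2 fold change -3.17 ± 0.22, edgeR adjusted p = 2.24e-05). Reads of Pgk1 and Pgam1 can be shared with processed pseudogenes, so their single values are uncertain.

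A list of enzymes that oppose glycolysis held sugar phosphatases that reverse the hexokinase and phosphofructokinase steps and the phosphoenolpyruvate carboxykinases, which bypass a later step. Of its 8 genes 4 were tested, and none passed in edgeR, none had an unadjusted p under 0.05 and DESeq2 called none. Pck2, a mitochondrial carboxykinase, was at 18.6 and 23.4 CPM on average, and G6pc3 at 23.5 and 23.1 CPM. The log2 fold change of Pck2 was 0.33, with 0.72 without control replicate 1, where it passed (adjusted p = 0.000556), and 0.03 without control replicate 2. The pentose phosphate and hexosamine branches draw on the hexose phosphates made at these steps. Of 11 tested genes of these branches, 5 rose and 6 did not pass (median 0.26). The share called was 45.5%, beside 15.7% of all tested genes. Uap1, of UDP-N-acetylglucosamine synthesis, rose by 1.73 ± 0.17 and Gfpt2, of the entry step of the hexosamine pathway, by 1.00 ± 0.16 on the log2 scale. Rpe and Gfpt1 rose by 0.68 ± 0.18 and 0.56 ± 0.17 (edgeR adjusted p = 0.0264 and 0.0492). Neither of these passed without PE replicate 1 (adjusted p = 0.316 and 0.523) or PE replicate 2 (adjusted p = 0.219 and 0.364). Gfpt1 lay at the threshold and also did not pass with RLE factors (adjusted p = 0.0509), upper-quartile factors (adjusted p = 0.0649), library sizes alone (adjusted p = 0.0624), the CPM filter (adjusted p = 0.0509) or mitochondrial transcripts left out (adjusted p = 0.0521). The list had 1 call without PE replicate 1, where Gfpt2 did not pass either (adjusted p = 0.0571).

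Among 18 tested transcription factors and kinases that act on these genes or enzymes, 2 fell and 16 did not pass (median -0.21). The calls came to 11.1% of the list, beside 15.7% of all tested genes. The 2 that fell were Klf15, a glucocorticoid-responsive factor of muscle metabolism, which fell by 1.58 ± 0.19, and Ppargc1a, the coactivator of mitochondrial genes, which fell by 0.99 ± 0.18 on the log2 scale. Without PE replicate 1, Ppargc1a was at -0.88 and did not pass (adjusted p = 0.13). Of 15 hypoxia-responsive genes that are not enzymes of glycolysis, 3 rose and 12 did not pass (median 0.46). The calls came to 20% of the list, beside 15.7% of all tested genes. In edgeR 7 of the 15 had an unadjusted p under 0.05 in either direction, or 46.7%, beside 28.8% of all tested genes. The log2 fold change was above 0 for 13 of the 15. Bnip3, a mitophagy receptor, rose by 1.00 ± 0.17, P4ha1, a collagen prolyl hydroxylase, by 0.90 ± 0.16 and Egln3, an oxygen-sensing prolyl hydroxylase, by 0.83 ± 0.18. All 3 calls were lost without PE replicate 1, and those of P4ha1 and Egln3 also without PE replicate 2. Hif1a, from the list of factors and kinases, and Vegfa, from the hypoxia-responsive list, were chosen after their values were seen. They were at 0.03 ± 0.18 and -0.04 ± 0.18 (edgeR adjusted p = 0.949 and 0.925), and do not stand for either list.

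**Figure D5:**
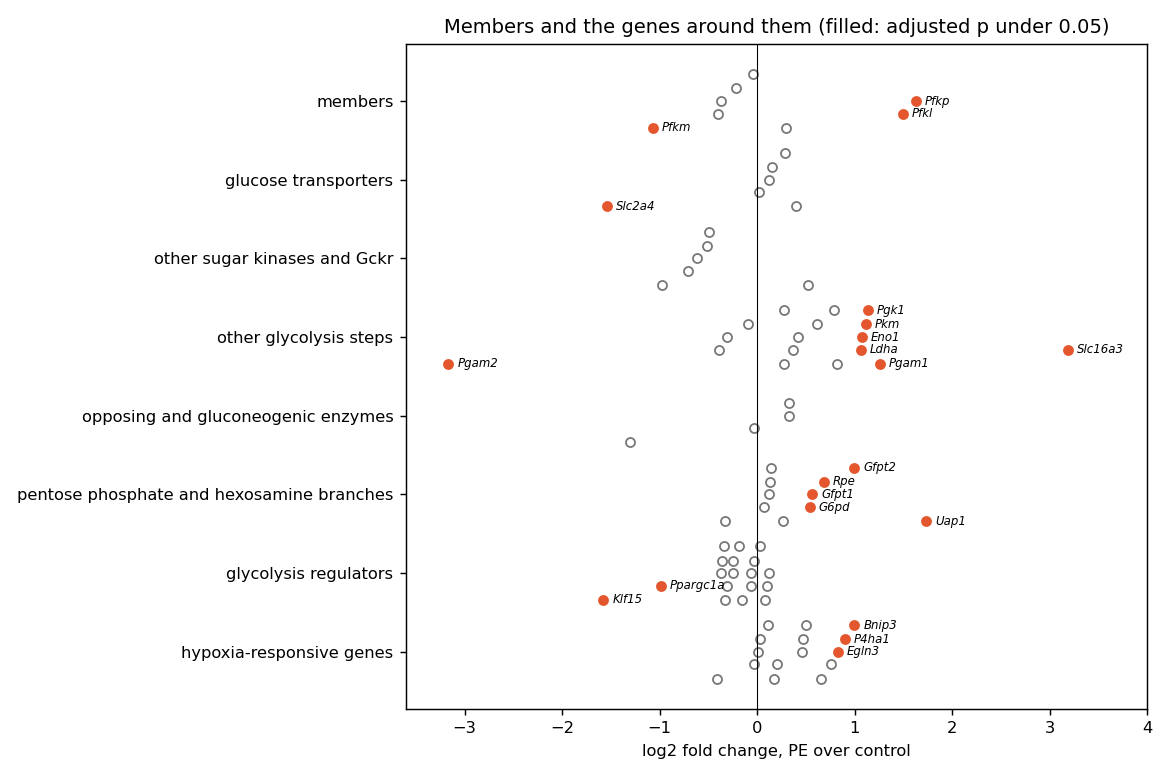
Log2 fold change, PE over control (x axis), of the 8 genes and of the tested genes of each list around them, filled and named where the adjusted p was under 0.05. Calls lie on both sides of 0 among the phosphofructokinase-1 genes and the other glycolysis steps, where Slc16a3 lies at 3.19 and Pgam2 at -3.17.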

How the data were processed

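Raw counts per gene were deposited by the authors. The submitters' processing notes name cutadapt 2.0, STAR 2.4.2a, featureCounts 1.6.4 and the build Rnor_6.0, without settings. Libraries were strand-specific and depleted of ribosomal RNA, per the labels' protocols. The second table holds the authors' log2 fold changes with standard errors, p-values, a score (the test statistic) and a mean normalized count (signal), per the file headers. Its gene names were joined to the counts by identifier.

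Counts were fitted with edgeR 4.0.16 (limma 3.58.1, R 4.3.3), its quasi-likelihood F test, TMM factors and default filter (minimum count 10, minimum total 15). The common dispersion was 0.0245. Standard errors are the log2 fold change over the square root of F. The fit was tested on simulated data. Alternatives included DESeq2 1.42.0. Groups came from the sample titles, because the protocol text names PE for all.

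Members and lists were chosen with earlier results of these data known. Named genes are all members, up to 4 changed genes per list (otherwise the 2 most abundant), and the 3 nearest patterns of the 2 members with the largest changes. Ratios used a pseudocount of 0.5. Transcript lengths were not used here.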

Additional observations from a re-analysis of the deposited data

How the results depend on the processing

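The count of 3 changed members held under the 8 other settings run on all 4 libraries without crossing replicate numbers (DESeq2, other scalings and filters, mitochondrial transcripts left out and the replicate block), and was 2 to 4 with a library left out. Over all genes, 2393 changed, with 1205 to 4755 when 1 library was left out. A lone library is assumed to vary like the other pair, and replicates lay further apart in the controls than with PE. Counts with a library left out were 1 to 2 for glucose transporters (1 with all libraries), 6 to 13 for other glycolysis steps (7), 1 to 5 for regulators (2), 0 to 6 for hypoxia-responsive genes (3), 0 to 1 for opposing enzymes (0), 0 to 2 for other sugar kinases and Gckr (0) and 1 to 6 for the pentose phosphate and hexosamine branches (5). The list of other sugar kinases and Gckr had 1 call with DESeq2, 2 with library sizes alone and 2 without a filter, and the branch list had 3 with library sizes alone. For these list counts the cause was not tested. Changes in the log2 ratio ran from -0.088 to 0.3 for Pfkp to Pfkl (0.11 with all libraries) and from -0.189 to 0.129 for Pfkfb3 to Pfkfb2 (-0.03), so neither sign held. With a library left out, Pfkfb1 ran from -0.176 to 0.126 (-0.04 with all libraries) and G6pc3 from -0.159 to 0.121 (-0.03).

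Replicate numbers are shared between groups, but nothing says that they mark a common culture. With the replicate number as a block, 1964 genes and 3 members changed, and the branch list had 2 calls, without Rpe (adjusted p = 0.0949) and Gfpt1 (adjusted p = 0.171). Deviations of same-numbered libraries correlated at -0.229 across genes, and with the numbers crossed, an alternative chosen after seeing the data, 4677 genes and 4 members were called, with 12 genes of other glycolysis steps, 5 regulators, 8 hypoxia-responsive genes and 3 of the other sugar kinases and Gckr.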
